A study of Mus musculus with 27 samples.

Results

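The macrophages and myeloid cells described here are 91 of the 6032 cell barcodes of 2 single-cell RNA libraries from embryonic mouse hearts at E11.5 (1.51%, exact 95% interval 1.22 to 1.85%). They were chosen by their own transcript counts. A barcode was taken when under 20% of its UMIs (unique molecular identifiers, 1 per captured messenger RNA molecule) came from Hba and Hbb haemoglobin genes, when the platelet genes Ppbp, Gp9, Gp1bb and Itga2b summed to under 5 UMIs, and when C1qa, C1qb, Csf1r, Mpo, Prtn3 and Tyrobp summed to at least 5 UMIs. The high values of these 6 genes are therefore the basis of the choice and not a result. The same holds, to a lesser degree, for every gene set against the remaining cells, so those contrasts are descriptions without a test.

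The mice were C57BL/6. One single-cell library came from +/+ embryos and the other from F/F embryos, in which both copies carry a full-length knockout allele of the long non-coding RNA gene Hand2as. For each genotype 6 hearts from intercrosses of heterozygous parents were trypsinised separately, sorted for living cells with 7-AAD, and combined into 1 library on a 10x Genomics 3′ kit. Each genotype is thus 1 pooled library with no replicate, and all intervals on single-cell values cover counting error only. The submitters aimed at about 5000 barcoded cells per library, and the table holds 2563 and 3469. Bulk RNA libraries gave the second readout: whole hearts at E11.5 and ventricles at E16.5, each from 3 F/+ and 3 F/F samples. No +/+ embryo was in the bulk groups at these stages, so their controls also carry 1 F allele, and nothing in the labels says whether the 3 libraries of a group came from separate embryos, so p-values measure only the spread between these samples. The 13 libraries from 8-week animals were not used here.

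Macrophages are phagocytes that clear dying cells, take up and recycle haem and lipids, and make the C1q subunits that start the classical complement pathway. In the mouse embryo the first macrophages descend from yolk sac progenitors, depend on the receptor CSF1R, and settle in organs including the heart before bone marrow forms. Myeloid progenitors circulate in the same period and make the azurophil granule proteins myeloperoxidase and proteinase 3 (Mpo and Prtn3). SPI1, also called PU.1, is the transcription factor on which both kinds of cell depend, and it binds DNA around a GGAA core.

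The promoters of 4 genes are printed as examples from the 2 programmes described below: C1qc and Trem2 for macrophages, Mpo and Prtn3 for granule-producing cells. All 4 hold the sequence marked below, and the promoters of the macrophage genes C1qb and Aif1 do not. Of the 12 genes ranked highest on each side, 8 per side had a promoter in the table. Of these 8, 3 held the sequence on either side. Each window runs from 250 bases before to 50 bases after the annotated start in RefSeq on GRCm38.p6, 5′ to 3′ on the gene's strand. Capitals mark GAGGAAG, a purine-rich sequence of the kind PU.1 binds, or CTTCCTC where it lies on the other strand.

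C1qc, minus strand, chr4:136892865-136893164: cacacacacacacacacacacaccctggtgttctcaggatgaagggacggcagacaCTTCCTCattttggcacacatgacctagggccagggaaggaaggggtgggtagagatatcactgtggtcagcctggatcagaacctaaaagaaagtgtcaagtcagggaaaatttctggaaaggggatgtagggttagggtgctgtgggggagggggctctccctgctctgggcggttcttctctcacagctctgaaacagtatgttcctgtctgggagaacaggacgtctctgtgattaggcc
Trem2, plus strand, chr17:48346151-48346450: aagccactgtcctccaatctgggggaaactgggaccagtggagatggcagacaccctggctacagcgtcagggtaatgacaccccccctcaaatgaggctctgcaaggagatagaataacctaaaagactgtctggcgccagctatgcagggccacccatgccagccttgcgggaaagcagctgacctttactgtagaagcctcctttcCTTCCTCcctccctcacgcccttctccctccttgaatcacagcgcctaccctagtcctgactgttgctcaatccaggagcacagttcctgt
Mpo, plus strand, chr11:87793534-87793833: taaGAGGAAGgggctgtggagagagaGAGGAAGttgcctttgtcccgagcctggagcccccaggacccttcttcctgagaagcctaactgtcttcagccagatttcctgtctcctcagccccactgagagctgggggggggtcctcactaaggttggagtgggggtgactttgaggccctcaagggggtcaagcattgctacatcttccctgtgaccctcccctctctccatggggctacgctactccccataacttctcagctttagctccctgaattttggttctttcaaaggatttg
Prtn3, plus strand, chr10:79879417-79879716: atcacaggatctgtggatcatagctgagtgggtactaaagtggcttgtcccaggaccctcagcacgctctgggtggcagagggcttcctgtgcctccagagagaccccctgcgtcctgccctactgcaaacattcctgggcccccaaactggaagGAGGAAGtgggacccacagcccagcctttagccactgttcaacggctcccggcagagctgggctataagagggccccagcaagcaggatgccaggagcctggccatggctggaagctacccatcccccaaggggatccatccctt

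The letters lie at -194 from the start in C1qc, at -41 in Trem2, at -247 and -224 in Mpo and at -95 in Prtn3. Of the 30 genes with the highest ratio of members to other cells, 25 had a promoter in the table, and 10 of these held GAGGAAG on either strand: Bcl2a1b, C1qc, Cd33, Fcgr1, Fcgr4, Lair1, Pld4, Stfa1, Tfec and Trem2. Over all 27025 genes with a promoter in the table the share with the letters was 15.4%. The activator protein 1 sequence TGAGTCA, the same on both strands apart from its middle base and searched on both, was present in 1 of the 25 (Clec4a2) and in 5.95% of all genes. A match of letters is not a binding site, and the 30 genes were chosen on these cells, so no test is given.

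The cutoff lay in a sparsely filled range. Among barcodes that met the haemoglobin and platelet conditions, 3412 had no UMI of the 6 genes, 210 had 1, 9 had 2, 4 had 3 and 2 had 4. Just inside the cutoff, 1 barcode each had 5, 6, 7 and 8 UMIs, and the highest member had 204. Among the 2265 erythroid barcodes (20% haemoglobin or more), 2168 had none of these UMIs, 97 had 1 and none had 2. Another 3 barcodes with enough UMIs were left out for their platelet genes.

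Members were deeply sampled cells. Their median was 24693 UMIs (range 5246 to 48451), against 11508 in erythroid cells and 14091 in the 3637 other heart cells, and 39 megakaryocyte-lineage cells (at least 5 platelet-gene UMIs) had a median of 19537. The libraries were alike in depth, with medians of 13369 UMIs per barcode in +/+ and 13403 in F/F. Haemoglobin made up a median of 1.31% of a member's UMIs, and 2 members, both +/+, held 14.2% and 12.1%. The libraries shared 18 barcode sequences, none of them a member's. The level of a gene is given below in CPM (UMIs of the gene in pooled cells as a proportion of all UMIs of those cells, on the standard CPM scale). Counts from a 3′ kit tag 1 end of each transcript, so levels of different genes were compared without a length correction.

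The +/+ library held 35 members of 2563 barcodes (1.37%, exact 95% interval 0.953 to 1.89%) and the F/F library 56 of 3469 (1.61%, 1.22 to 2.09%). Among barcodes that were not erythroid the shares were 2.22% (1.55 to 3.07%) and 2.56% (1.94 to 3.31%). The intervals of the 2 libraries overlapped widely on both denominators, so no difference between them was detectable at this number of cells. A share after dissociation and sorting is a share of the recovered cells, not of the heart.

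The 6 genes divided the members into 2 kinds. With 3 UMIs as the bound, 47 members held C1qa, C1qb or Csf1r and under 3 UMIs of Mpo plus Prtn3 (the complement side), 34 held the reverse (the granule side), 7 held both and 3 neither. C1qb, a C1q chain, had 9 to 97 UMIs in complement-side cells with a median of 49, and 1 UMI in all granule-side cells together. Mpo had 1 to 58 UMIs in granule-side cells with a median of 12, and 1 UMI in all complement-side cells together. The bound holds these genes under 3 UMIs per cell on the opposite side, so their low values there partly restate the definition. Csf1r, the receptor for the macrophage growth factor CSF1, had 1 to 16 UMIs in every complement-side cell (median 7), and Prtn3 was present in 33 of 34 granule-side cells (median 8). Tyrobp, the DAP12 adaptor of activating receptors, was the gene both kinds shared, at a median of 31 UMIs in complement-side and 5 in granule-side cells. Few cells lay near the bound: 9 members had 2 or 3 UMIs on either count.

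**Figure D1:**
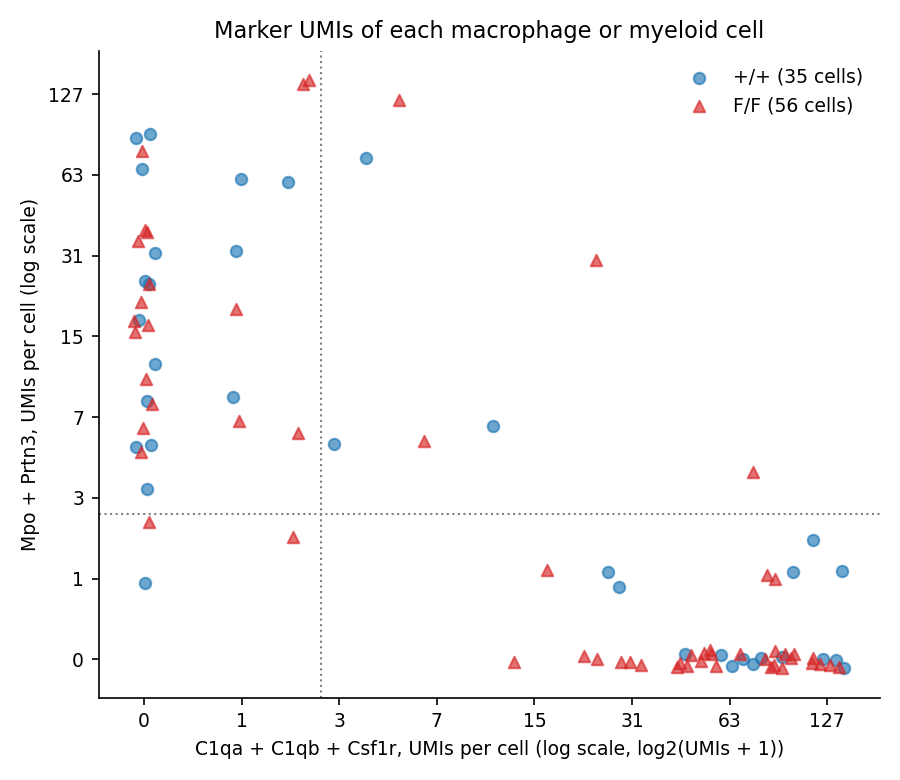
Each point is 1 of the 91 members, with the UMIs of C1qa, C1qb and Csf1r on the horizontal axis and of Mpo and Prtn3 on the vertical axis (log2 of UMIs + 1, points jittered), circles for +/+ and triangles for F/F; dotted lines mark the bound of 3 UMIs. The 47 complement-side cells lie along the lower right and the 34 granule-side cells along the left edge, with both libraries in each.

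The division did not rest on the 6 genes alone. Clustering the members without those genes gave 4 clusters, and 78 of the 81 cells on a side fell in a cluster led by their own side. The 3 others were granule-side cells in a mixed cluster that also held 8 complement-side cells and 4 of the 7 cells with both signals.

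Complement-side cells numbered 15 in +/+ (0.585% of barcodes, 0.328 to 0.963%) and 32 in F/F (0.922%, 0.632 to 1.30%). Granule-side cells numbered 16 in +/+ (0.624%, 0.357 to 1.012%) and 18 in F/F (0.519%, 0.308 to 0.819%). The point values leaned in opposite directions and the intervals overlapped for both kinds.

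Relative to all other cells, 1118 of 5116 genes tested were past 2-fold higher in the members (21.9%) and 623 were past 2-fold lower (12.2%). This split depended on the haemoglobin of the erythroid cells. With CPM computed without haemoglobin and mitochondrial genes it was 673 higher and 964 lower, and against other cells that were not erythroid it was 701 higher and 1097 lower. The median log2 ratio over all genes was 0.46. Counts for gene lists below are read against 21.9% and 12.2%.

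Several genes had no UMI in any of the 5941 other barcodes. Mpeg1, which encodes the pore-forming protein perforin-2, had 84 UMIs in the members, at least 1104-fold higher than other cells when 3 UMIs over all of them are taken as the floor. Cybb, the catalytic subunit of the phagocyte NADPH oxidase, had 78 UMIs and was at least 1025-fold higher. Lair1, an inhibitory collagen receptor, had 58 UMIs (at least 762-fold higher), and Casp1, the inflammasome protease, had 56 (at least 736-fold higher). Others were nearly as restricted: Pld4 had 143 UMIs in members and 2 elsewhere, Ms4a6b had 155 and 2, Aif1 had 467 and 9, and Ly86, the partner of the CD180 receptor, had 695 and 16.

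Several abundant genes of leukocytes and macrophages were present on both sides. Apoe, the lipid carrier, reached 2615 CPM in members (4895 on the complement side). Fcer1g, the common Fc receptor γ chain, stood at 960 CPM and had a UMI in every member. Coro1a, an actin regulator of leukocytes, stood at 819 CPM against 2.71 in other heart cells. Cd52 stood at 544 CPM and Ptprc, the CD45 antigen, at a lower 58.6 CPM, against 0.511 and 0.0757 in other heart cells. Apoe, Fcer1g and Cd52 were past 2-fold higher on the complement than on the granule side, with Cd52 at 781 and 291 CPM. Coro1a was at 842 CPM on the complement side and 674 on the granule side.

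Markers other than the 6 rule genes were set against the label, as a description of cells chosen on the same counts. Of 19 such macrophage markers in the table, 16 had enough UMIs to be compared, and 15 of these were past 2-fold higher in members than in other cells. The exception was Pf4, a platelet chemokine also made by macrophages, at 56.8 CPM in members and 1.81e4 CPM in megakaryocyte-lineage cells. Of 13 granulocyte and monocyte progenitor markers besides Mpo and Prtn3, 3 had enough UMIs and all 3 were higher (Plac8, Srgn and Hp). A gene rare in other cells entered these counts only by having 50 UMIs in members, so it could only come out higher. Hp, with 101 UMIs in members and 4 elsewhere, and Timd4, with 50 and 1, are such genes. All 11 cardiomyocyte markers and all 6 erythroid markers tested were lower. Lists of other blood lineages were mixed. The dendritic genes Itgax, H2-Aa, Clec9a, Zbtb46 and Ciita, the mast cell proteases Tpsb2, Mcpt4 and Cma1, and the T cell genes Cd3e and Thy1 were at 0 UMIs in members. The remaining genes of the dendritic and MHC class II list were detected. Its 9 genes summed to 14.9 CPM in members (22.1 on the complement side) and 13.5 CPM in other heart cells. Tested markers of the lymphoid list consisted of Cd79b, a B cell receptor chain, at 44.2 CPM on the complement side. The mast cell and basophil genes Hdc and Cpa3 were present, and their list of 6 genes summed to 115 CPM on the granule side and 0 on the complement side.

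**Figure D2:**
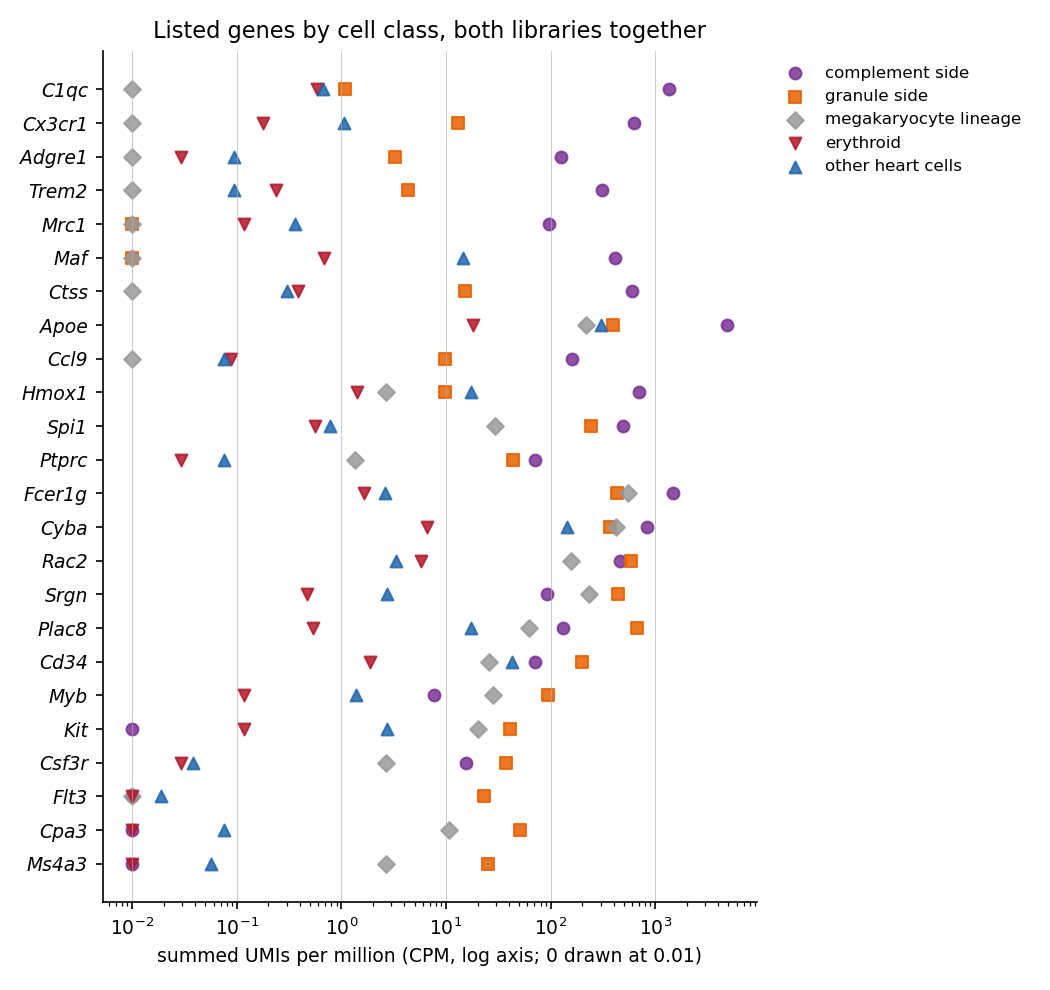
Points give the CPM of 24 listed genes (log axis, 0 drawn at 0.01) in complement-side cells, granule-side cells, megakaryocyte-lineage cells, erythroid cells and other heart cells, both libraries together. C1qc to Hmox1 lie far right for complement-side cells, Plac8 to Ms4a3 are highest for granule-side cells or shared with the megakaryocyte lineage, and Spi1, Ptprc and Fcer1g are high on both sides.

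Between the sides, 439 of 4144 genes were past 2-fold higher on the complement side (10.6%) and 265 on the granule side (6.39%). Of the macrophage markers outside the rule, 15 of 16 were higher on the complement side and none on the granule side. Besides the 3 C1q chains, the 12 genes ranked highest on the complement side included Aif1, an actin-binding protein of macrophages, at 427 CPM, Maf, a macrophage transcription factor, at 408 CPM, and Fcrls, an Fc receptor-like gene, at 313 CPM. All 3 had no UMI on the granule side. Rnase4, a ribonuclease of the RNase A family, had the highest finite ratio after the C1q chains, at 274 against 1.09 CPM. The chemokine Ccl2 was at 129 CPM, and the mannose receptor Mrc1 at 97.0 CPM in 31 of 47 cells, again with no UMI on the granule side. Cx3cr1, the fractalkine receptor, had a UMI in all 47 complement-side cells (623 CPM) and in 4 of 34 granule-side cells (13.1 CPM).

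The digestive machinery was concentrated in the complement-side cells. Of 23 lysosomal genes tested, 19 were past 2-fold higher there and none on the granule side. Ctsb, cathepsin B, stood at 1648 CPM against 60.1, Lgmn, the asparagine endopeptidase legumain, at 970 against 4.37, and Ctss, cathepsin S, at 603 against 15.3. Cathepsin S was also restricted in tissue, at 0.303 CPM in other heart cells, whereas cathepsin B was at 235 CPM there. Cd63, a lysosomal and granule membrane protein, did not follow, at 265 CPM on the complement side and 359 on the granule side.

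Genes for the uptake of dead cells and lipids had the same tilt, with 9 of 11 tested higher on the complement side and none on the granule side. Lpl, lipoprotein lipase, stood at 257 CPM against 3.28, Stab1, a scavenger receptor, at 124 against 4.37, and Msr1, the class A scavenger receptor, at 63.4 with no UMI on the granule side. The apoptotic-cell receptor genes were thinly detected: Mertk had UMIs in 15 of 47 complement-side cells and Axl in 9. Timd4, a phosphatidylserine receptor that marks long-lived resident macrophages in adult tissue, had UMIs in 9 of 47 cells, 4 of them +/+ and 5 F/F. Lyve1, another marker of resident macrophages, had UMIs in 4 cells.

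Iron and haem genes were higher on the complement side in 8 of 9 cases. Ftl1 and Fth1, the ferritin chains, were among the most abundant transcripts there, at 12605 and 4754 CPM against 2635 and 1524 on the granule side. Slc40a1, the iron exporter ferroportin, stood at 99.0 CPM in 18 of 47 cells, and Slc11a1, an iron transporter of the phagosome, at 83.6 CPM in 35 cells. Blvrb, biliverdin reductase B, was at 135 CPM on the complement side but at 831 CPM in erythroid cells. Hmox1, haem oxygenase 1, was at 700 CPM on the complement side, and its UMIs were very unevenly spread: 33 of 47 cells had at least 1 and the 5 highest cells held 90.0% of them. Of 12 complement-side cells with at least 3 Hmox1 UMIs, 6 also had at least 3 of Slc40a1, whereas 1 had at least 3 of Ccl2.

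Chemokine genes were also carried by subsets. Ccl24 (eotaxin 2) had UMIs in 16 of 47 complement-side cells, Ccl2 in 18, Ccl12 in 12, Ccl3 in 25 and Ccl4 in 12. Ccl24 and Timd4 shared cells: of 6 cells with at least 3 Timd4 UMIs, 4 had at least 3 of Ccl24, which were 4 of 10 such cells. Ccl2 and Ccl12, 2 ligands of CCR2, shared 4 cells of 8 and 7. Ccl24 and Ccl2 shared 1 cell of 10 and 8. These are counts of few cells, chosen after the values were seen, and are given as description.

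Fc receptor and adaptor signalling was higher on the complement side in 10 of 14 genes compared besides Tyrobp and on the granule side in none. Trem2, a lipid-sensing receptor that signals through TYROBP, was in all 47 complement-side cells (307 CPM) and 2 granule-side cells (4.37 CPM). The kinase Btk and the phospholipase Plcg2 were similar on both sides, at 40.4 and 36.5 CPM on the complement side and 45.9 and 48.1 on the granule side. NADPH oxidase subunits were expressed on both sides, with 4 of 6 past 2-fold higher on the complement side. Cyba stood at 835 and 373 CPM. The GTPase Rac2 stood at 456 CPM on the complement side and 582 on the granule side.

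Granule-side cells carried the transcripts of immature blood cells. Mpo and Prtn3 define this side and are set apart. The 3 other granulocyte and monocyte progenitor markers compared and all 4 early haematopoietic markers compared were past 2-fold higher there than on the complement side. Against all other cells the early haematopoietic list was split. Of 6 tested, 3 were past 2-fold higher in members (Cd34, Myb and Gata2) and 3 past 2-fold lower (Mecom, Sox4 and Mycn). Kit, the stem cell factor receptor, had UMIs in 21 of 34 granule-side cells (40.4 CPM) and in none of 47 complement-side cells. Myb stood at 94.0 CPM in 24 cells, Cd34 in 30 cells (183 UMIs), Flt3 at 22.9 CPM in 7 cells and Ms4a3, a gene of granulocyte and monocyte progenitors, at 25.1 CPM in 12 cells. Plac8 (664 CPM, 31 cells) and Srgn, the granule proteoglycan serglycin (436 CPM, 34 cells), were the broadest. Gata2, a factor of progenitors and mast cells, was at 94.0 CPM in 17 cells and at 0.961 CPM on the complement side.

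Several other genes of granulocytes and monocytes were rare. Elane, neutrophil elastase, had UMIs in 3 granule-side cells, Cebpe in 3, and Ctsg, Fcnb, Gfi1 and Ly6c2 in 1 each. Stfa1, a cysteine protease inhibitor of the stefin A family, had 168 UMIs in 6 granule-side cells, and 89 of them came from 1 cell. Near-identical stefin A genes exist, so reads of Stfa1 may be shared with its copies. Lyz2, lysozyme, had 234 UMIs in 14 granule-side cells, with 94.0% of them in 5 cells. Of the 5 cells with at least 3 Lyz2 UMIs, 4 had at least 3 of Hp (haptoglobin) and none had at least 3 of Kit. Hdc and Cpa3, genes of mast cells and basophils, were at 62.3 CPM (13 cells) and 51.4 CPM (13 cells), and 2 cells had at least 3 UMIs of each; none of the 6 cells with at least 3 Hdc UMIs had at least 3 of Lyz2. Part of the granule-side signal was narrow, since Dqx1, at 139 CPM, came from 3 cells.

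Some granule-side genes also belonged to the megakaryocyte lineage. Nfe2, a factor of erythroid and megakaryocyte cells, was at 90.7 CPM on the granule side and 128 CPM in megakaryocyte-lineage cells, and Tuba8 was at 55.7 and 84.8 CPM. Itga2b, 1 of the platelet genes capped by the rule, had UMIs in 18 of 34 granule-side cells. Of the 3 barcodes removed for platelet genes, 2 had Prtn3 at 11 and 5 UMIs and Mpo at 1 and 11 UMIs, so the boundary between these classes cut through cells with both signals.

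The 7 cells with both signals are too few for comparison. All 7 had Csf1r (3 to 10 UMIs), Prtn3 (3 to 71), Tyrobp (14 to 54), Spi1 (2 to 19), Cx3cr1 (1 to 12) and Plac8 (5 to 56), and none had Kit. Lyz2 was in 6 of them, at 765 CPM, Irf8 in 6, at 320 CPM, and Hp in 6, at 152 CPM. Ccr2, the receptor that marks monocytes, had UMIs in 3 of the 7, in 3 of 47 complement-side cells and in 1 of 34 granule-side cells. Doublet scoring removed 1 of these 7 cells and 2 complement-side cells.

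Transcription factors repeated the division. Spi1 (PU.1) stood at 378 CPM in members, 0.776 CPM in other heart cells and 0.560 CPM in erythroid cells, with 488 CPM on the complement and 243 on the granule side. Of 14 myeloid factors tested between the sides, 10 were past 2-fold higher on the complement side, among them Irf8 at 138 against 22.9 CPM and Maf. The 2 higher on the granule side were Ikzf1 at 78.7 against 37.5 CPM and Lyl1 at 126.7 against 61.5 CPM. Runx1, a factor required for blood formation, was at 92.9 CPM on the granule and 51.9 CPM on the complement side. Sall1, a factor of microglia, had no UMI in members.

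Of 8 CSF and interleukin receptors compared besides Csf1r, 5 were past 2-fold higher on the complement side (Csf2ra, Il10rb, Il4ra, Tgfbr1 and Ifnar2) and 1 on the granule side. Tgfbr1, a TGF-β receptor, stood at 89.3 CPM on the complement and 19.7 CPM on the granule side. The gene higher on the granule side was Csf3r, the G-CSF receptor, at 37.2 CPM on the granule side and 15.4 CPM on the complement side. Cxcr2, a neutrophil chemokine receptor, stood at 42.6 and 10.6 CPM. Csf1 and Il34, the ligands of CSF1R, had no UMI in any member, whereas Csf1 was at 4.90 CPM in other heart cells. Kitl, the ligand of KIT, was at 21.1 CPM and Cx3cl1, the ligand of CX3CR1, at 2.82 CPM in other heart cells, against 1.80 and 0.451 CPM in members. Igf1, a growth factor that macrophages can supply, was lower in members than in other heart cells (37.9 against 113 CPM), and Tgfb1 was higher (137 against 22.5 CPM).

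Members held many transcripts of dividing cells. After each cell was thinned to 5000 UMIs, 84 of 91 members (92.3%) had at least 3 UMIs of the 18 S phase genes, against 72.7% of other heart cells and 79.8% of erythroid cells. For genes of G2 and mitosis the shares were 86.8%, 57.3% and 78.8%. Erythroid cells spend most UMIs on haemoglobin, and their thinned cells held a median of 812 genes against 1763 in members. Unthinned, the summed S phase genes stood at 1929 CPM in members and 1272 CPM in other heart cells. Complement-side and granule-side cells were alike, with S phase medians of 9 and 10 UMIs and G2 medians of 7 and 8. Mki67, a single proliferation marker, had a different order: after thinning it had a UMI in 27.5% of members, 44.4% of erythroid cells and 20.1% of other heart cells. By 2-fold counts, 3 of 18 S phase genes and 1 of 17 G2 genes were higher in members than in other cells, below the 21.9% of all genes.

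Hand2, the heart transcription factor gene next to Hand2as, was hardly detected in members. They held 6 Hand2 UMIs (2.70 CPM), erythroid cells 5.36 CPM and other heart cells 109 CPM. After thinning, 0 of 91 members had a Hand2 UMI (exact 95% interval up to 3.97%). That limit covers detection at the thinned depth only, since 6.59% of members had a Hand2 UMI before thinning. The members' level lay under that of erythroid cells, which should lack the gene, and is not read as expression. The lncRNA itself, listed as Gm28063, had no UMI in members and 10 UMIs elsewhere, so it checks neither genotype here.

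F/F and +/+ members were close overall. A gene was compared when both libraries gave 50 or more of its UMIs in members. Of 2262 such genes, 4 were past 2-fold higher in F/F (0.177%) and 17 past 2-fold lower (0.752%). The median log2 ratio was 0.02 and the 5th to 95th percentiles ran from -0.51 to 0.38. With 1 library per genotype no test was possible, and intervals are exact for counting error only.

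**Figure D3:**
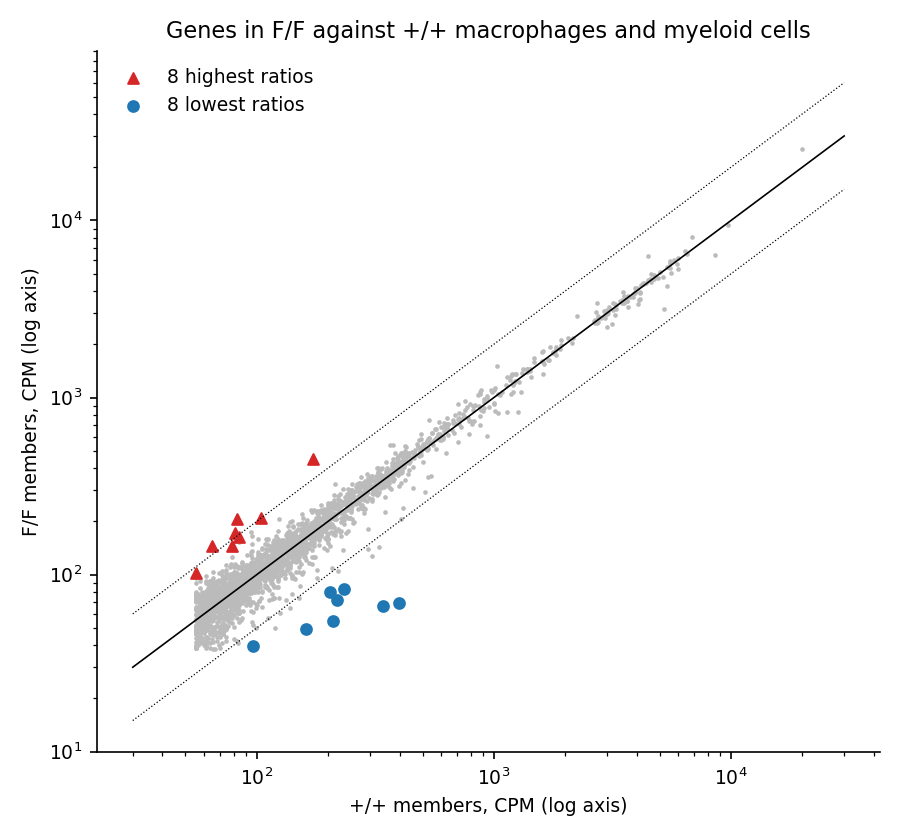
Each grey point is 1 of 2262 genes, with its CPM in +/+ members on the horizontal and in F/F members on the vertical axis (both log); the solid line is equality, dotted lines are 2-fold, and the 8 highest and 8 lowest ratios are coloured. Most genes lie between the dotted lines, with 4 above and 17 below them.

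Pooled over members, C1qb stood at 879 CPM in +/+ and 1103 in F/F (ratio 1.25, 1.15 to 1.37). Within the complement side it stood at 2042 and 2136 CPM (ratio 1.05, 0.958 to 1.14). Complement-side cells made up 42.9% of +/+ members and 57.1% of F/F members. Cells with both signals held 1 C1qb UMI in +/+ and 57 in F/F. The part of either in the pooled ratio was not tested. Csf1r had a ratio of 1.04 (0.846 to 1.29), Spi1 1.07 (0.931 to 1.23), Cx3cr1 0.946 (0.814 to 1.10) and Mpo 0.883 (0.755 to 1.03), all with intervals that include 1. Pooled over members, Prtn3 was lower in F/F, at 368 and 305 CPM (0.83, 0.715 to 0.962). Within the granule side it stood at 619 and 610 CPM (ratio 0.986, 0.832 to 1.17). C1qc was higher in F/F, with a ratio of 1.40 (1.25 to 1.56) over members and 1.17 (1.05 to 1.31) within the complement side. The macrophage markers summed to 11387 CPM in +/+ and 11011 CPM in F/F complement-side cells.

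Hmox1 had the highest ratio, at 172 CPM in +/+ and 447 in F/F members (2.59, 2.17 to 3.11). It came from a few cells. In the complement side, +/+ cells held 145 UMIs in 12 of 15 cells with 91 in the highest, and F/F cells held 584 UMIs in 21 of 32 cells with 230 in the highest. The median cell had 2 UMIs in +/+ and 1 in F/F, so most F/F cells were not above +/+ cells. Leaving out the highest cell of each library gave a ratio of 3.78. In erythroid cells the ratio was 1.17 (0.633 to 2.20) and in other heart cells 1.27 (1.11 to 1.46).

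H19, an imprinted growth-related lncRNA, stood at 82.3 and 207 CPM (2.51, 1.94 to 3.29), against 2376 CPM in other heart cells. Myl4 (2.24, 1.66 to 3.06) and Myl7 (1.98, 1.56 to 2.54), atrial myosin light chains, were also among the 8 highest. Id2 (2.13, 1.63 to 2.81) and Id3 (1.93, 1.48 to 2.54), inhibitors of DNA binding, Glrx, glutaredoxin (1.84, 1.40 to 2.45), and Sparc, a matrix protein (1.84, 1.32 to 2.60), completed them. H19, Myl4, Myl7 and Sparc are far more abundant in other heart cells than in members. Id2 (677 against 136 CPM) and Id3 (792 against 131 CPM) were also more abundant there. The 11 cardiomyocyte markers summed to 581 CPM in +/+ members and 1026 CPM in F/F members, beside 27390 CPM in other heart cells and 1223 CPM in erythroid cells. Their part in these ratios was not tested. Removing the 3 members scored as doublets took Sparc to a log2 ratio of 0.03 and H19 to 0.94. Id2 had a ratio of 1.95 (1.46 to 2.64) on the complement side. On the granule side its ratio was 0.461 (0.121 to 1.53), from 9 and 5 UMIs. In erythroid cells, which should lack them, Myl4 and Myl7 also had ratios above 1, at 1.67 and 1.54.

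Of the 8 lowest genes in F/F members, 6 had intervals wholly below 1 in erythroid and in other heart cells too. Snhg9, a small nucleolar RNA host gene, stood at 340 and 66.7 CPM in members (0.196, 0.153 to 0.249), with 0.228 in erythroid and 0.210 in other heart cells. Gm29666 had a ratio of 0.174 (0.137 to 0.220), with 0.309 and 0.227. Naa15, an N-terminal acetyltransferase subunit, had 0.353 (0.278 to 0.447), with 0.412 and 0.391, and Hk2, hexokinase 2, had 0.391 (0.304 to 0.499), with 0.408 and 0.537. Plk4, the centriole duplication kinase, had 0.261 (0.196 to 0.344) in members, and its erythroid (0.571) and other heart (0.461) intervals lay above that of the members. Dennd5b had 0.332 in members, 0.583 in erythroid and 0.537 in other heart cells. The 17 to 4 split therefore included genes that separated the 2 libraries in each of these classes.

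Dnajb14, a chaperone gene, was lower in members (0.407, 0.283 to 0.580) and nearer equality in other heart cells (0.841, 0.770 to 0.920). Its UMIs numbered 87 and 52. The ratio was 0.277 (0.150 to 0.487) on the granule side and 0.795 (0.449 to 1.43) on the complement side. Ifitm1, an interferon-induced membrane protein gene, had a ratio of 0.305 (0.224 to 0.412), but 110 of its 145 UMIs in +/+ came from 1 cell. Without the highest cell of each library the ratio was 0.738, and on the granule side alone it was 1.32 (0.835 to 2.13).

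**Figure D4:**
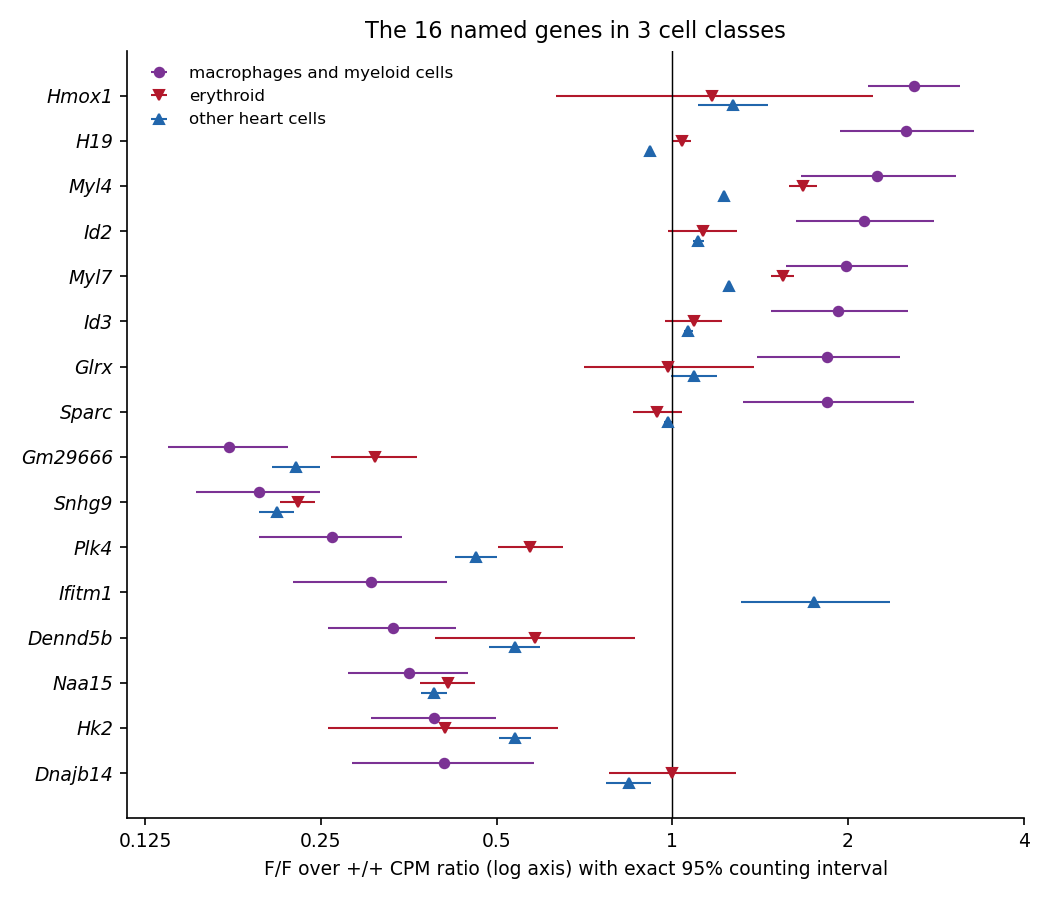
Points give the F/F over +/+ ratio of CPM (log axis) with the exact 95% counting interval for the 8 highest and 8 lowest genes in members, erythroid cells and other heart cells; the vertical line is equality. The 3 intervals overlap for Snhg9 and Naa15, the members' interval lies apart from both other classes for H19, Id2, Id3, Glrx, Sparc, Plk4 and Dnajb14, and for Hmox1 it overlaps the wide erythroid interval; Ifitm1 has no erythroid point because +/+ erythroid cells held none of it.

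Chemokine genes with under 50 UMIs in a library were outside this ranking. Ccl2 had 19 UMIs in +/+ and 117 in F/F members (4.19, 2.57 to 7.21), in 5 and 15 cells, with 53 of the F/F UMIs in 1 cell. Ccl12 had 9 and 55 UMIs (4.16, 2.04 to 9.58) in 2 and 10 cells. Maf went the other way, at 296 and 139 CPM (0.471, 0.388 to 0.570), and here the shift was in most cells: complement-side medians were 12 UMIs in +/+ (range 3 to 40) and 5 in F/F (0 to 13), while median depths were 24759 and 20745 UMIs. Timd4 stood at 32.3 and 15.9 CPM, from 29 and 21 UMIs in 4 and 5 cells. These 4 genes were picked after their values were seen.

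The bulk libraries compared F/F with F/+ in replicates, over whole tissue. A bulk value cannot tell fewer macrophages from less RNA per macrophage. At E11.5, 1 of 11491 genes passed an adjusted p of 0.05 in limma (0.0087%), and at E16.5 1 of 10699 (0.00935%). At both stages it was Mir6236, which is in none of the lists. No macrophage, granule or progenitor gene was called at either stage.

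C1qa stood at 6.25, 2.95 and 5.19 FPKM (fragments per kilobase of transcript, scaled to library size) in the F/+ hearts at E11.5 and at 5.62, 2.84 and 3.48 in F/F. The groups overlapped (log2 difference -0.21, SE 0.34, limma adjusted p 0.999). Csf1r stood at 5.71, 4.15 and 4.75 in F/+ and 3.39, 6.85 and 2.68 in F/F, again overlapping. Mpo spread widely within F/F, at 0.86, 11 and 2.12 FPKM, around F/+ values of 6.72, 3.88 and 5.46. Of the 24 macrophage markers, 15 passed the filter of 1 FPKM at E11.5. Of those, 7 lay above and 8 below equality, none reached an unadjusted p of 0.05 (4.37% of all genes did), and none separated the groups (9.23% of all genes did). Their median log2 difference was -0.06 against 0.02 for all genes.

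At E16.5 C1qa stood at 12.09, 18.51 and 11.04 FPKM in F/+ ventricles and 11.56, 10.45 and 10.44 in F/F. These groups overlapped, with a log2 difference of -0.30 (SE 0.18, limma adjusted p 0.9999). Of 12 macrophage markers that passed the filter, 11 lay below equality, with a median of -0.09 against 0.00 for all genes. None reached an unadjusted p of 0.05 (2.63% of all genes did) and none separated the groups (6.78% of all genes did). Haemoglobin took 10.4 to 29.7% of FPKM at E11.5. At E16.5 it took 0.819, 0.651 and 0.835% in F/+ and 2.42, 2.27 and 0.998% in F/F, without overlap. All 4 erythroid markers tested at E16.5 lay above equality, with a median log2 difference of 0.64. Of these, 3 had an unadjusted limma p under 0.05 and none was called. The part of haemoglobin or erythroid cells in the macrophage values was not tested.

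**Figure D5:**
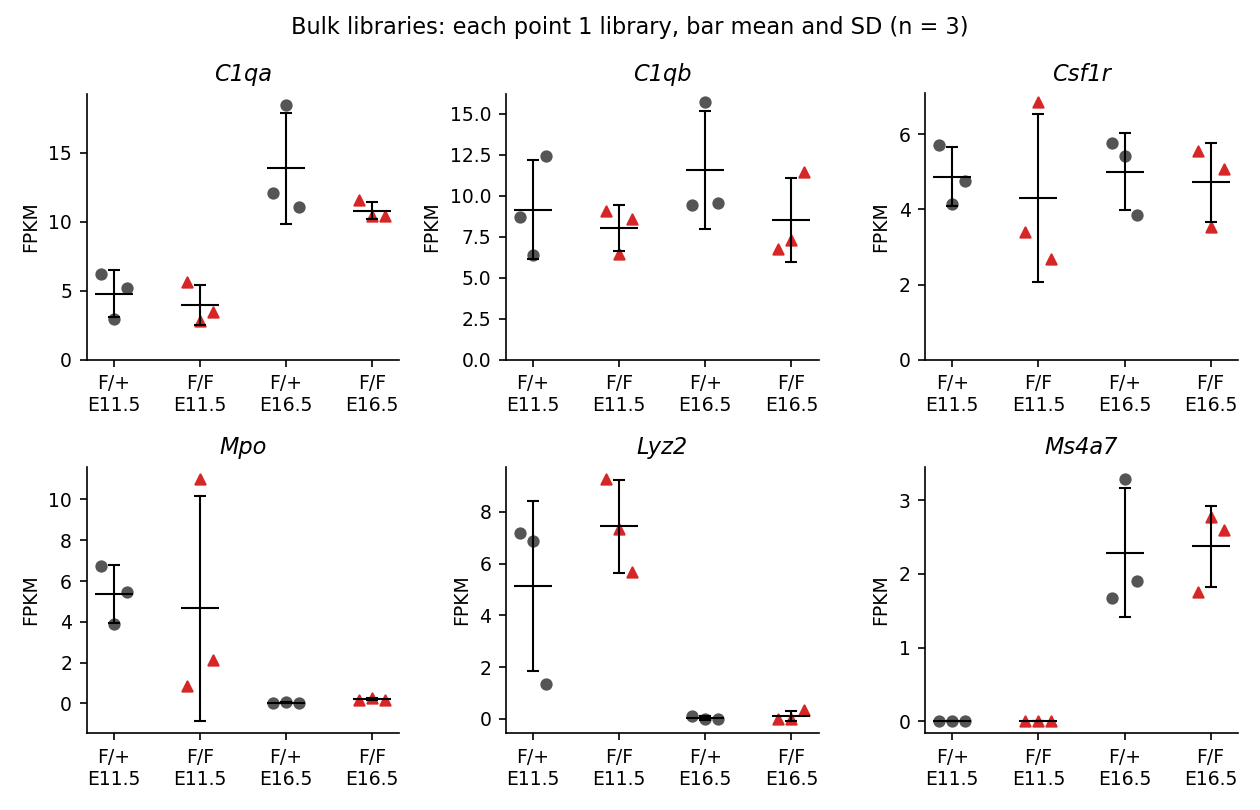
Points give FPKM of 6 genes in each bulk library, circles for F/+ and triangles for F/F, with bars at the mean and SD (n = 3). Genotypes overlap for C1qa, C1qb, Csf1r, Lyz2 and Mpo at E11.5, and the stages separate for C1qa, Ms4a7, Mpo and Lyz2.

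Of 14 macrophage markers compared between stages, 2 were higher and 3 lower in all 6 E16.5 libraries than in all 6 at E11.5, shares near or under those of all genes given below. Stage and tissue cannot be told apart because E11.5 libraries were whole hearts and E16.5 libraries were ventricles. C1qa and Ms4a7, a membrane protein of macrophages, were higher in all 6 E16.5 libraries than in all 6 E11.5 libraries, a pattern shared by 15.7% of 11423 genes. Ms4a7 was listed at 0 in every E11.5 library and at 1.68 to 3.29 FPKM at E16.5. Cx3cr1, Lyz2, Pf4 and Mpo were lower in all E16.5 libraries, a pattern shared by 26.6% of genes. Mpo was at 0 to 0.27 FPKM at E16.5 and at 0.86 or more at E11.5, and Lyz2 was at most 0.35 at E16.5 and 1.33 to 9.26 at E11.5. Csf1r, at 2.68 to 6.85 and 3.54 to 5.77 FPKM, overlapped between stages. The effect of F/F did not differ detectably between the stages for any of 235 listed genes tested, with a smallest limma adjusted p of 0.930.

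Bulk values of the rarer genes limit what can be said. Tyrobp was listed at 0 in 1 F/+ and 1 F/F library at E11.5 beside 15.67 and 13.01 FPKM in others, and Fcer1g and Prtn3 were listed at 0 in the same 2 libraries. Of the 30 leading member genes, 4 passed the filter at E11.5 and 6 at E16.5. On simulated E11.5 data over 11491 genes, the test recovered 25% of genes changed by 1 log2 unit and 72% of those changed by 2.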

How the data were processed

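Single-cell UMI counts were deposited by the authors as 1 table of 19020 lines and 6032 barcodes, whose endings name the library; Cell Ranger and mm10 are given in the submitters' processing notes. Bulk values were deposited by the authors as normalised values that fit FPKM, a unit inferred from the values because no header names it; the submitters' processing notes name CASAVA, TopHat2 2.0.11 and mm9, and the counting tool is not given in the sources used here. Bulk depth is therefore unknown, and the 13 columns of 8-week libraries were left out. The members and all 27 gene lists were chosen with earlier results of these data known.

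UMIs were summed per class and library (+/+ 38302758 UMIs, F/F 51432290) and expressed as CPM. Shares have exact Clopper-Pearson 95% intervals and ratios have exact conditional intervals. Genes with at least 50 UMIs in the cells compared (in the members for the ranking of leading genes, in each library for F/F against +/+) were ranked, and those named were the 30 highest against other cells, 12 per side, 8 per direction between libraries and the listed genes; haemoglobin, mitochondrial and sex-specific genes were left out of rankings. Counts past 2-fold against other cells also took genes whose UMIs would give 50 in members at equal levels. A fold against 0 used a floor of 3 UMIs over the group. Bulk genes that averaged 1 FPKM or more were tested with limma 3.58.1 in R 4.3.3 on log2(FPKM + 1), F/F against F/+ within a stage, with Benjamini-Hochberg adjustment over all genes; fold changes on this scale understate changes of low genes. The test was checked on simulated data. Single-cell work used Python 3.11.15, scipy 1.17.1 and scanpy 1.11.5, whose Leiden clustering used the members without the 6 rule genes and whose scrublet scores marked doublets at 0.8% per 1000 barcodes as an alternative. Alternatives covered the marker, haemoglobin and depth limits, doublets, scaling, sides, pseudocount, filter, replicate block and left-out libraries.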

Additional observations from a re-analysis of the deposited data

How the results depend on the processing

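The member shares of +/+ and F/F moved by less than their intervals under 6 alternatives, to between 1.15 and 1.52% and between 1.36 and 1.73%, and F/F stayed above +/+ in each. Against all other cells, the genes higher and lower past 2-fold were 673 and 964 without haemoglobin and mitochondrial genes, 701 and 1097 against cells that were not erythroid, and 582 and 285 in the +/+ library alone; 369 were lower in the F/F library alone, where fewer UMIs leave fewer genes tested. The sides gave 201 and 119 genes in +/+ alone, and 163 on the granule side in F/F alone. Within members, F/F against +/+ gave 1 higher and 7 lower of 1076 genes in complement-side cells and 0 higher and 7 lower of 1102 in granule-side cells, the second chosen after seeing the data. On the log2 scale Ifitm1 turned to 1.56 in complement-side and 0.40 in granule-side cells, and Hmox1 to -3.27 and Id2 to -1.12 in granule-side cells. Most of these rest on few UMIs in +/+ and F/F. Ifitm1 had 1 and 5 in complement-side cells, and Hmox1 had 8 and 1 and Id2 9 and 5 in granule-side cells. The intervals included a ratio of 1 for Ifitm1 on both sides and for Id2. Removing doublets moved H19 to 0.94 and Sparc to 0.03, and the mean over cells moved Sparc to 0.20. Leaving out the 2 members with at least 10% haemoglobin, added after seeing the data, gave 4 and 18 genes.

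Replicate numbers did not pair the bulk samples: deviations of same-numbered libraries correlated at -0.04, -0.02 and 0.08 at E11.5 and at -0.08, 0.04 and -0.43 at E16.5. With the replicate block, 2 genes were called at E11.5. Both stages in 1 fit called 11 genes at E11.5. At E16.5 the block called 1 gene, and 2 genes were called with a pseudocount of 0.1. Without a filter limma called 0 genes at E16.5, where 650 genes had an unadjusted p under 0.05. Leaving out 1 library at a time gave 1 to 2 calls at E11.5 and 0 to 2 at E16.5, with 0 calls without F/+ replicate 3 (338 genes at an unadjusted p under 0.05) and without F/F replicate 1 (229 genes). Genes below the threshold changed sign there, with log2 differences that ran at E11.5 from -1.47 to 0.90 for Tyrobp, -0.24 to 0.18 for Cx3cr1, -1.20 to 0.10 for Prtn3, -0.35 to 0.083 for C1qb, -0.54 to 0.0086 for Csf1r and -0.25 to 1.54 for Fcer1g, and at E16.5 from -0.22 to 0.084 for Csf1r, -0.52 to 0.037 for C1qc and -0.50 to 0.11 for Tyrobp. The causes were not tested.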
